A study of Mus musculus with 11 samples.

Results

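The genes described here are 10 cell-surface or secreted immune regulators: Cd274, Cd80, Cd86, Cd40, Cd47, Lgals9, Tnfsf10, Fas, Tnfrsf1a and Tnfrsf1b. They were taken by name as a list of costimulatory, checkpoint and death receptor genes, not by their values, and are 10 of the 22180 genes measured. Each was read by 1 probe set of an Affymetrix expression array. The arrays held total RNA of mouse hematopoietic stem cells (HSCs), the rare cells that renew the blood, sorted by flow cytometry from injected mice. The 11 arrays fell into 4 groups. For 3 arrays (ATRA+pIC) the mice were given retinoic acid in its all-trans form (ATRA), which cells make from vitamin A, followed by polyIC. PolyIC (pIC) is a synthetic double-stranded RNA that sets off an interferon response. The others were 2 from mice given pIC, 3 from mice given ATRA, and 3 from mice given phosphate-buffered saline (PBS). The sources used here do not give strain, age, doses, injection times or the sorting gate, nor whether replicates came from separate mice. The p-values therefore reflect the spread among these arrays alone, and that spread may be technical. In sorted bulk RNA, a change in how many cells of a type were present and a change in RNA per cell cannot be told apart.

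These proteins meet at the contact between a cell and the immune cells that inspect it. CD80 and CD86 bind CD28 on T cells and help activate them, or bind CTLA-4, which restrains them, while PD-L1, the product of Cd274, binds the inhibitory receptor PD-1. CD40 is a TNF receptor family member that receives CD40 ligand from helper T cells, and CD47 binds SIRPα on macrophages as a signal against being eaten. TRAIL, encoded by Tnfsf10, and Fas ligand bind death receptors that recruit caspases, TNF signals through Tnfrsf1a, which has a death domain, and through Tnfrsf1b, which has none, and galectin-9 (Lgals9) is a sugar-binding protein described as a ligand of the checkpoint receptor TIM-3. Blood-forming stem cells respond to interferon, and PD-L1 and TRAIL are known interferon-induced genes in many cell types.

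The labels were checked with genes outside the list. Dhrs3, a retinoid reductase gene known to be induced by retinoic acid, was at 10.74 to 11.12 log2 units on the ATRA+pIC arrays, 9.83 and 9.94 on the pIC arrays, 10.92 to 11.41 on the ATRA arrays and 8.997 to 9.43 on the PBS arrays. It was also higher in pIC against PBS, by 0.73 ± 0.18 (limma adjusted p = 0.0208). Its difference of 0.98 ± 0.18 between ATRA+pIC and pIC did not pass (limma adjusted p = 0.218). The median of 8 interferon response genes stood 3.49, 1.87 and 3.19 log2 units above its PBS mean on ATRA+pIC replicates 1, 2 and 3, and 3.36 and 3.42 above it on the pIC arrays, against -0.23 to 0.02 on the ATRA arrays and -0.04 to 0.07 on the PBS arrays. ATRA+pIC replicate 2 therefore stood apart from the other arrays labelled pIC or ATRA+pIC. Many of the differences and counts of called genes that use it are given with and without it. The summed intensity of 9 HSC and progenitor markers was 7974 to 12171 on the ATRA+pIC arrays and 8085.5 and 8243 on the pIC arrays. It was 12641 to 13529 on the ATRA arrays and 12608 to 13302 on the PBS arrays. In pIC against PBS 5 of the 9 fell, where 5.75% of all genes did, and fewer fell with either pIC array left out. Markers of other blood cells moved with pIC as well. For 17 markers of T and NK cells the summed intensity was 12985, 2000 and 10155 on ATRA+pIC replicates 1, 2 and 3, and 10686 and 11245 on the pIC arrays, against 1567 to 1978 on the ATRA arrays and 1450.5 to 1933 on the PBS arrays. Ccl5 made up much of that sum: without it the values were 5534, 1691 and 4762 on ATRA+pIC replicates 1, 2 and 3, and 2806 and 4178 on the pIC arrays, against 1346 to 1671 on the ATRA arrays and 1269 to 1604 on the PBS arrays. The median of the 17 markers stood 1.45, 0.042 and 1.37 log2 units above its PBS mean on ATRA+pIC replicates 1, 2 and 3, and 0.47 and 1.13 on the pIC arrays, against 0.065 to 0.21 on the ATRA arrays and -0.10 to 0.066 on the PBS arrays. In pIC against PBS 3 of the 17 rose (Ccl5, Gzmb and Nkg7), or 10 without ATRA+pIC replicate 2. Over all 22180 genes 1984 rose and 1276 fell in the full fit, and 4052 were called in either direction without that array. With either pIC array left out, a single pIC array remained, and both the marker count and the calls over all genes were lower. The sum of 16 monocyte, macrophage and dendritic cell markers was 2474 to 3943 on the ATRA+pIC arrays, 3363 and 3517 on the pIC arrays, 2116 to 2270.5 on the ATRA arrays and 1888 to 2013 on the PBS arrays. Of those 16, Mpeg1, Ly6c2 and Fcgr1 rose in pIC against PBS and the others, none of which passed, lay between -0.72 for Lyz2 and 0.67 for Itgam. None of 9 B cell and 12 neutrophil markers passed in pIC against PBS by limma, with 1 higher and 1 lower B cell marker and no neutrophil marker at an unadjusted p under 0.05. In ATRA+pIC against PBS 1 of the T and NK cell markers rose, or 14 without ATRA+pIC replicate 2. That number was 0 without ATRA+pIC replicate 1 or 3 or PBS replicate 1 or 2. Of the HSC and progenitor markers 2 fell, or 6 without ATRA+pIC replicate 2. Over all 22180 genes 1.61% rose and 1.51% fell in the full fit. Without ATRA+pIC replicate 2 the calls numbered 2469 in either direction, and 159 to 280 in the other fits named. The part of these markers in the results below was not tested.

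In pIC against PBS, 4 of the 10 genes rose and none fell, where 8.94% of all genes rose and 5.75% fell. The 4 were the checkpoint ligand Cd274, the costimulatory ligand Cd86, the death ligand Tnfsf10 and the galectin Lgals9, by 1.24 to 1.41 log2 units, or 2.35-fold to 2.66-fold. In ATRA+pIC against PBS, the same 4 genes rose, by 0.86 to 1.16 log2 units, and none fell, where 1.61% of all genes rose and 1.51% fell. Both comparisons use the same 3 PBS arrays. The median difference over the 10 genes was 0.54 in pIC and 0.35 in ATRA+pIC, and over all genes it was 0.0013 and -0.0095. Every difference is in log2 units of deposited, RMA-normalized intensity, tested with limma across all 22180 genes with a Benjamini-Hochberg adjusted p under 0.05 as the threshold for a call. In pIC, the arrays lay above all PBS arrays for 8 of the 10 genes and below them for none, where 23.4% and 19.6% of all genes did so. In ATRA+pIC the same held for 5 and none of the 10, where 9.82% and 10.5% of all genes did so. The count in ATRA+pIC against PBS depended on single arrays: it was 0 without PBS replicate 2 or ATRA+pIC replicate 3, 1 (Tnfsf10) without PBS replicate 1 or ATRA+pIC replicate 1, 3 (Cd274 lost) without PBS replicate 3 or any 1 of the ATRA arrays, and 4 without ATRA+pIC replicate 2. The calls over all 22180 genes moved as well, from 356 higher and 334 lower in the full fit. They numbered, in either direction, 171 without PBS replicate 2 and 159 without ATRA+pIC replicate 3. Without PBS replicate 1 or ATRA+pIC replicate 1 they numbered 280 or 244, and without ATRA+pIC replicate 2 they numbered 2469. With PBS replicate 3 or any 1 of the ATRA arrays left out they numbered 390 to 444. The receptor genes Fas, Tnfrsf1a and Tnfrsf1b, and Cd80, Cd40 and Cd47, were not called in either comparison.

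**Figure D1:**
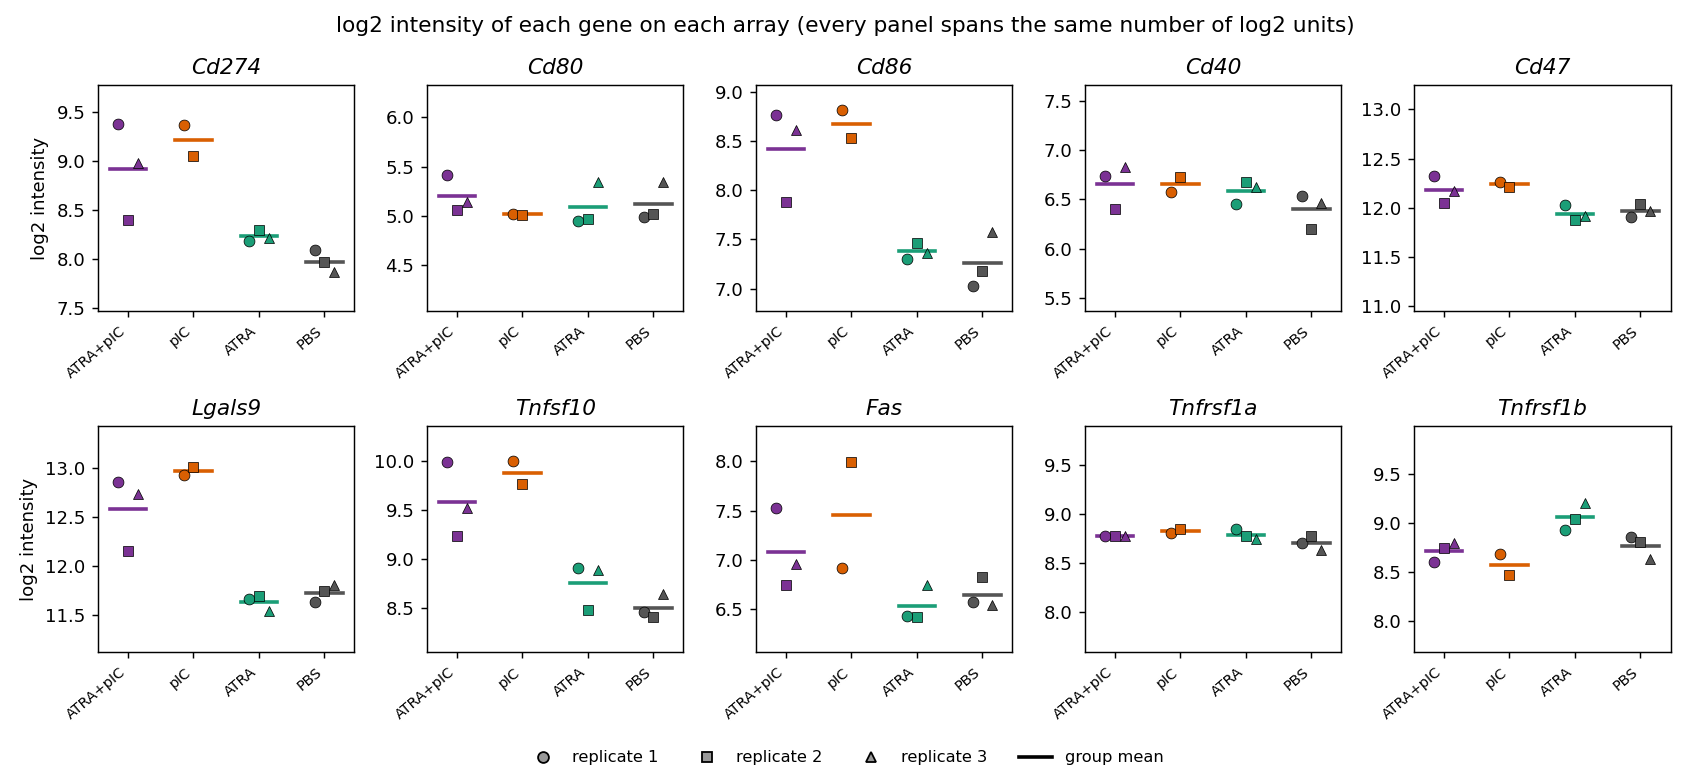
Log2 intensity of the 10 genes on each of the 11 arrays, 1 panel a gene, with the groups ATRA+pIC, pIC, ATRA and PBS along the horizontal axis; points are arrays and bars are group means. Cd274, Cd86, Tnfsf10 and Lgals9 are higher on every ATRA+pIC and pIC array than on every ATRA and PBS array, while Tnfrsf1a stays within 8.63 to 8.85 on all 11.

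Cd274 (chromosome 19, 29362107 to 29388095 in GRCm38.p6) measured 9.38, 8.40 and 8.98 on the ATRA+pIC arrays, 9.37 and 9.06 on the pIC arrays, 8.19, 8.29 and 8.22 on the ATRA arrays, and 8.09, 7.97 and 7.87 on the PBS arrays. The lowest ATRA+pIC array, replicate 2, still lay above the highest ATRA array, and no pIC array overlapped the PBS arrays. The gene rose by 1.24 ± 0.22 (SE) in pIC against PBS (n = 2 and 3, adjusted p = 0.00623) and by 0.94 ± 0.20 in ATRA+pIC against PBS (n = 3 each, adjusted p = 0.0329). Without ATRA+pIC replicate 2 this difference from PBS was 1.20 (adjusted p = 0.000468). It missed the threshold with any 1 other ATRA+pIC array, or any 1 PBS or ATRA array, left out (adjusted p 0.0541 to 0.112). The pIC call depended on pIC replicate 1: without it the difference was 1.08 and the call was lost. Without pIC replicate 2 the difference was 1.39, and in either fit a single pIC array was left. Against ATRA, the ATRA+pIC group was higher by 0.68 ± 0.20, which missed the threshold (adjusted p = 0.0636), and by 0.95 without ATRA+pIC replicate 2, which passed it (adjusted p = 0.00141).

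Cd86 (chromosome 16, 36568956 to 36666158), the CD28 and CTLA-4 ligand with early expression on activated antigen-presenting cells, had the highest of the 10 differences in pIC against PBS. It measured 8.77, 7.88 and 8.61 on the ATRA+pIC arrays, 8.81 and 8.53 on the pIC arrays, 7.31, 7.47 and 7.37 on the ATRA arrays, and 7.03, 7.18 and 7.57 on the PBS arrays. Again all 5 arrays from pIC-injected mice lay above all 6 others. Cd86 rose by 1.41 ± 0.24 in pIC against PBS (2.66-fold, adjusted p = 0.00471), by 1.16 ± 0.21 in ATRA+pIC against PBS (adjusted p = 0.0176) and by 1.04 ± 0.21 in ATRA+pIC against ATRA (adjusted p = 0.0174). With ATRA+pIC replicate 2 left out, the difference of ATRA+pIC was 1.43 from PBS (adjusted p = 0.00035) and 1.31 from ATRA (adjusted p = 0.000487). Its close relative Cd80 (chromosome 16, 38457430 to 38495958), which binds the same receptors, read 5.41, 5.06 and 5.14 on the ATRA+pIC arrays, 5.02 and 5.01 on the pIC arrays, 4.95, 4.96 and 5.34 on the ATRA arrays, and 4.99, 5.02 and 5.34 on the PBS arrays. The ATRA+pIC arrays lay above both pIC arrays by a small margin, and all other pairs of groups overlapped. Cd80 was the only one of the 10 genes among the dimmest 40% of genes, whose low signal limits what can be seen. Its difference in pIC against PBS was -0.10, with a 95% interval of -0.44 to 0.24. For ATRA+pIC against PBS it was 0.089, or 0.16 without ATRA+pIC replicate 2, and neither passed (adjusted p = 0.799 and 0.61).

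Cd40 (chromosome 2, 165055614 to 165071654) measured 6.73, 6.40 and 6.83 on the ATRA+pIC arrays, 6.57 and 6.73 on the pIC arrays, 6.45, 6.67 and 6.63 on the ATRA arrays, and 6.54, 6.20 and 6.46 on the PBS arrays. Both pIC arrays lay above the PBS arrays, replicate 1 by a small margin, and the difference of 0.26 ± 0.14 did not pass (adjusted p = 0.291). The value for ATRA+pIC against PBS was 0.26 ± 0.13 (adjusted p = 0.313), and 0.38 without ATRA+pIC replicate 2 (adjusted p = 0.0647). It was 0.36 with array quality weights, where it passed (adjusted p = 0.0345). Those weights were 0.65, 0.37 and 4.19 for ATRA+pIC replicates 1, 2 and 3, so replicate 3 counted most in any weighted ATRA+pIC mean. Cd47 (chromosome 16, 49851328 to 49912503) measured 12.32, 12.05 and 12.17 on the ATRA+pIC arrays, 12.27 and 12.21 on the pIC arrays, 12.02, 11.88 and 11.91 on the ATRA arrays, and 11.91, 12.03 and 11.97 on the PBS arrays. All 5 arrays from pIC-injected mice were above all 6 others, by a small margin. The difference was 0.27 ± 0.095 in pIC against PBS (95% interval 0.06 to 0.48, adjusted p = 0.0852) and 0.21 ± 0.085 in ATRA+pIC against PBS (adjusted p = 0.207), or 0.28 without ATRA+pIC replicate 2 (adjusted p = 0.0677). With array quality weights, or with a prior fitted to the trend of variance on intensity, Cd47 passed in pIC against PBS (adjusted p = 0.037 and 0.0282).

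Lgals9 (chromosome 11, 78962979 to 78984924) measured 12.86, 12.16 and 12.73 on the ATRA+pIC arrays, 12.93 and 13.004 on the pIC arrays, 11.67, 11.70 and 11.54 on the ATRA arrays, and 11.63, 11.74 and 11.81 on the PBS arrays. The pIC arrays were the highest of all, above every ATRA+pIC array. Lgals9 rose by 1.24 ± 0.17 in pIC against PBS (adjusted p = 0.00244), by 0.86 ± 0.15 in ATRA+pIC against PBS (adjusted p = 0.0163) and by 0.95 ± 0.15 in ATRA+pIC against ATRA (adjusted p = 0.00696). Leaving out ATRA+pIC replicate 2, the difference of ATRA+pIC was 1.07 from PBS (adjusted p = 7.79e-05) and 1.16 from ATRA (adjusted p = 4.28e-05). Tnfsf10 (chromosome 3, 27317077 to 27339665), the gene of TRAIL, measured 9.99, 9.24 and 9.53 on the ATRA+pIC arrays, 9.99 and 9.77 on the pIC arrays, 8.91, 8.48 and 8.89 on the ATRA arrays, and 8.47, 8.41 and 8.65 on the PBS arrays. All 5 arrays from pIC-injected mice again lay above all 6 others. It rose by 1.37 ± 0.20 in pIC against PBS (adjusted p = 0.00295), by 1.08 ± 0.18 in ATRA+pIC against PBS (adjusted p = 0.0131) and by 0.82 ± 0.18 in ATRA+pIC against ATRA (adjusted p = 0.0233). Without ATRA+pIC replicate 2 its difference was 1.25 from PBS (adjusted p = 0.00138) and 0.997 from ATRA (adjusted p = 0.00347).

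None of the 3 receptors of the death ligand and TNF families in the list was called. Fas (chromosome 19, 34290647 to 34327775), the receptor of Fas ligand, measured 7.53, 6.75 and 6.96 on the ATRA+pIC arrays, 6.92 and 7.996 on the pIC arrays, 6.43, 6.42 and 6.74 on the ATRA arrays, and 6.57, 6.82 and 6.54 on the PBS arrays. The pIC arrays differed from each other by more than replicate 1 differed from PBS, and ATRA+pIC replicate 2 lay among the PBS arrays. The difference was 0.81 ± 0.29 in pIC against PBS (95% interval 0.17 to 1.45, adjusted p = 0.0897). One array decided it: without pIC replicate 1 the value was 1.35 and passed (adjusted p = 0.0301), and without pIC replicate 2 it was 0.27 (adjusted p = 0.662). For ATRA+pIC against PBS it was 0.43 ± 0.26 (adjusted p = 0.417), and 0.60 without ATRA+pIC replicate 2 (adjusted p = 0.227). Tnfrsf1a (chromosome 6, 125349723 to 125362483), the TNF receptor with a death domain, measured 8.77 on each of the ATRA+pIC arrays, 8.80 and 8.85 on the pIC arrays, 8.85, 8.77 and 8.74 on the ATRA arrays, and 8.71, 8.77 and 8.63 on the PBS arrays. Its difference in pIC against PBS was 0.12, with a 95% interval of -0.05 to 0.29, so a rise the size of those of the 4 called genes lay outside the interval. Tnfrsf1b (chromosome 4, 145212368 to 145246870), the TNF receptor without a death domain, measured 8.61, 8.75 and 8.80 on the ATRA+pIC arrays, 8.68 and 8.47 on the pIC arrays, 8.92, 9.04 and 9.20 on the ATRA arrays, and 8.86, 8.80 and 8.63 on the PBS arrays. The ATRA arrays were the highest, above every array of the other 3 groups. In pIC against PBS the difference was -0.19 (95% interval -0.44 to 0.06).

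**Figure D2:**
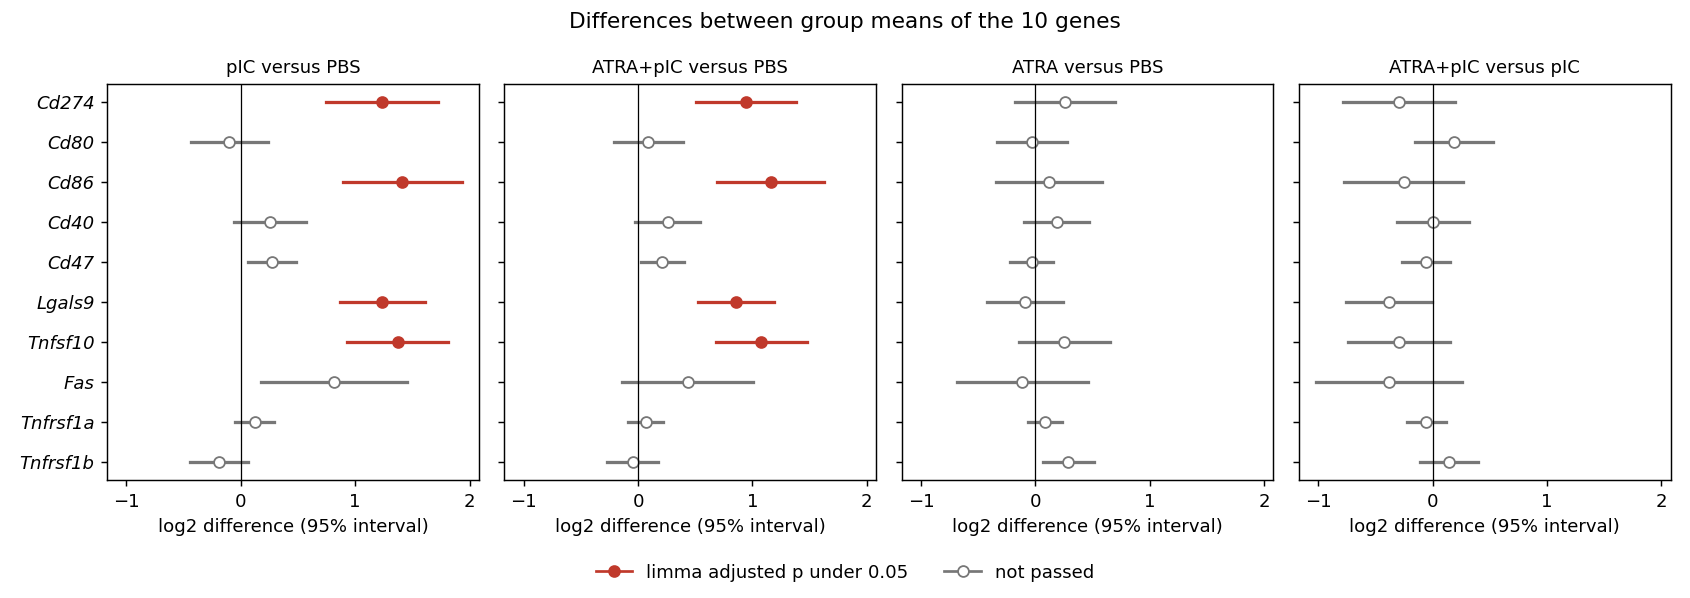
Log2 differences of the 10 genes with 95% intervals from limma, 1 panel each for pIC against PBS, ATRA+pIC against PBS, ATRA against PBS and ATRA+pIC against pIC; filled points passed an adjusted p under 0.05. The 4 called genes sit between 0.86 and 1.41 in pIC against PBS and ATRA+pIC against PBS, and the intervals of ATRA+pIC against pIC include 0 for 9 of the 10 genes.

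The start regions of 3 genes that rose and of Tnfrsf1b, which was not called against PBS, are shown because they differ in 2 short motifs linked to interferon signalling. RefSeq gives 300 bases (250 before the transcription start and 50 from it on) in GRCm38.p6 for 8 of the 10 genes; Cd86 and Cd40 are named only. Capitals mark the core of the interferon-stimulated response element (GAAA, any 2 bases, GAAA), bound by interferon-activated STAT and IRF factors, and the gamma-activated site bound by STAT dimers (TTC, any 3 bases, GAA). Both were searched on both strands, and no match of one overlapped a match of the other. The windows are chr11:78984875-78985174 (minus strand) for Lgals9, chr19:29367188-29367487 (plus strand) for Cd274, chr3:27316827-27317126 (plus strand) for Tnfsf10 and chr4:145246821-145247120 (minus strand) for Tnfrsf1b.
Lgals9: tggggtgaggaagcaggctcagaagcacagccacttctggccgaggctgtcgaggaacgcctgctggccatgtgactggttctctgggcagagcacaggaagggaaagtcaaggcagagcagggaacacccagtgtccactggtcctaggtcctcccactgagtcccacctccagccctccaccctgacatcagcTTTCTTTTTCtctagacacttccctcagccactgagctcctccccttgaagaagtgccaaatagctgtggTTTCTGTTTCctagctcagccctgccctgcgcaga
Cd274: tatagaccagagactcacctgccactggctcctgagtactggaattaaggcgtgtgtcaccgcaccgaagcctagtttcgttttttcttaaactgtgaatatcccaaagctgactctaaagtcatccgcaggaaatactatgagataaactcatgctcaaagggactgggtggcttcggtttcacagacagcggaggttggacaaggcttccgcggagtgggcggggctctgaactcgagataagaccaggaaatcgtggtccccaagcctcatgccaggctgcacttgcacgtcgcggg
Tnfsf10: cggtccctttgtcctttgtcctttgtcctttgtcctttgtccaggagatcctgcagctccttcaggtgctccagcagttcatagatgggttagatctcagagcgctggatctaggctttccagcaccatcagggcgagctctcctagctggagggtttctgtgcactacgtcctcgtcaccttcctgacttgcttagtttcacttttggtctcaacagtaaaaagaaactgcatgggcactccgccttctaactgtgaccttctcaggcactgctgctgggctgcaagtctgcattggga
Tnfrsf1b: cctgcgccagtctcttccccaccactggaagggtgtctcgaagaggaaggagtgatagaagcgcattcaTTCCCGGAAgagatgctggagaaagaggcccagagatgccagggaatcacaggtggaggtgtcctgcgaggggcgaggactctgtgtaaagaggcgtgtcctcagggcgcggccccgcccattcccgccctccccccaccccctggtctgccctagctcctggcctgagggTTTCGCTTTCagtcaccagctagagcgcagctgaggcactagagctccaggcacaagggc

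The Lgals9 window held the response element core on the opposite strand at 2 places, with first printed bases 55 before and 15 after the start. The Tnfrsf1b window held it once on the opposite strand, 10 bases before the start, and a gamma-activated site 181 bases before it. The Cd274 and Tnfsf10 windows held neither, which says only that these letters are absent from these 300 bases. The core was present in 3.44% and the gamma-activated site in 8.3% of 32851 RefSeq windows of that length. Tnfrsf1a and Fas held 1 gamma-activated site each, 244 and 93 bases before the start, and Cd80 and Cd47 held neither motif. The windows of Cd274, Cd80 and Cd47 lay inside the gene spans printed above, so the first bases of those spans were not searched. A match is a description of the letters, and genes with a match were both among those that rose and among those not called.

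None of the 10 genes was called after ATRA alone. In ATRA against PBS none passed by limma (adjusted p 0.626 to 0.988), where 0.00451% of all genes, a single gene, were called. At an unadjusted p under 0.05 there was 1 of the 10, Tnfrsf1b, where 6.8% of all genes were. It was higher by 0.29 ± 0.10 (95% interval 0.06 to 0.52, adjusted p = 0.626), with all 3 ATRA arrays above all 3 PBS arrays. Cd274 was likewise higher on all 3 ATRA arrays than on all 3 PBS arrays, by 0.26 ± 0.20 (adjusted p = 0.884), and 6.61% of all genes showed such a separation, with 6.08% separated the other way. For the other genes called with pIC, Cd86 differed by 0.12 (95% interval -0.35 to 0.59), Tnfsf10 by 0.25 (-0.14 to 0.65) and Lgals9 by -0.09 (-0.43 to 0.24). The summed intensity of the 12 neutrophil markers was 3143 on ATRA replicate 1, 1058 and 1080 on the other ATRA arrays and 881 to 941 on the PBS arrays, and its part was not tested.

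When both injections were combined, the comparison with ATRA alone showed 3 of the 10 genes higher, Cd86, Tnfsf10 and Lgals9, where 3.5% of all genes rose and 3.71% fell. The arrays lay apart for 6 genes that were higher and 1 that was lower, where 11.7% and 12.4% of all genes did so. Tnfrsf1b was lower in ATRA+pIC than in ATRA by -0.34 ± 0.10, with no overlap of the arrays, and missed the threshold (adjusted p = 0.075), as it did without ATRA+pIC replicate 2 (-0.35, adjusted p = 0.0764). It passed with the dimmest 40% of genes left out (adjusted p = 0.046) and with array weights (adjusted p = 0.0457). Without ATRA+pIC replicate 2, 5 of the 10 genes rose against ATRA, with Cd274 and Cd47 added. That fit called 3214 of all 22180 genes, in either direction. Without ATRA+pIC replicate 1 or 3, or without any 1 of the ATRA arrays, Lgals9 was the only one left. In those fits 476 to 755 of all 22180 genes were called.

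Against pIC alone, ATRA+pIC gave no call among the 10 genes (adjusted p 0.486 to 0.997), where 0.0% of all genes were called by limma. At an unadjusted p under 0.05 there was 1 of the 10, Lgals9, and 10.1% of all genes. Lgals9 was lower by -0.38 ± 0.17, with a 95% interval of -0.76 to -0.008 (adjusted p = 0.486), and lay below both pIC arrays on all 3 ATRA+pIC arrays. Such a separation was found for 2 lower genes and 1 higher gene of the 10, and for 17.4% and 9.74% of all genes. Cd274 differed by -0.29 (95% interval -0.78 to 0.19), Cd86 by -0.25 (-0.77 to 0.27), Tnfsf10 by -0.30 (-0.74 to 0.15) and Fas by -0.38 (-1.02 to 0.26), intervals that hold both no difference and a loss of a large part of the pIC response. Without ATRA+pIC replicate 2 the differences were -0.033 for Cd274, 0.016 for Cd86, -0.12 for Tnfsf10, -0.17 for Lgals9 and -0.21 for Fas, and none passed (adjusted p 0.742 to 0.995). The value of Fas was 0.16 without pIC replicate 2. Lgals9 still lay below both pIC arrays on the other ATRA+pIC arrays. The interaction, which sets the effect of pIC after ATRA against its effect without ATRA, also gave no call and no unadjusted p under 0.05 among the 10 genes, where 0.0% of all genes were called and 6.27% passed unadjusted. Its values were -0.55 for Cd274 (95% interval -1.205 to 0.10) and -0.55 for Tnfsf10 (-1.14 to 0.05). They were, without ATRA+pIC replicate 2, -0.29 for Cd274 and -0.38 for Tnfsf10.

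On ATRA+pIC replicate 2, the array that stood apart, the median of the T and NK cell markers was 0.042 above its PBS mean, where the ATRA and PBS arrays ran from -0.10 to 0.21. On that array Cd274, Cd86, Tnfsf10 and Lgals9 each read above all 6 ATRA and PBS arrays, at 8.40 against at most 8.29, at 7.88 against at most 7.57, at 9.24 against at most 8.91, and at 12.16 against at most 11.81. The monocyte, macrophage and dendritic cell sum there, 2474, was above the 2270.5 of the highest ATRA array. The part of these markers in the level of the 4 genes was not tested.

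**Figure D3:**
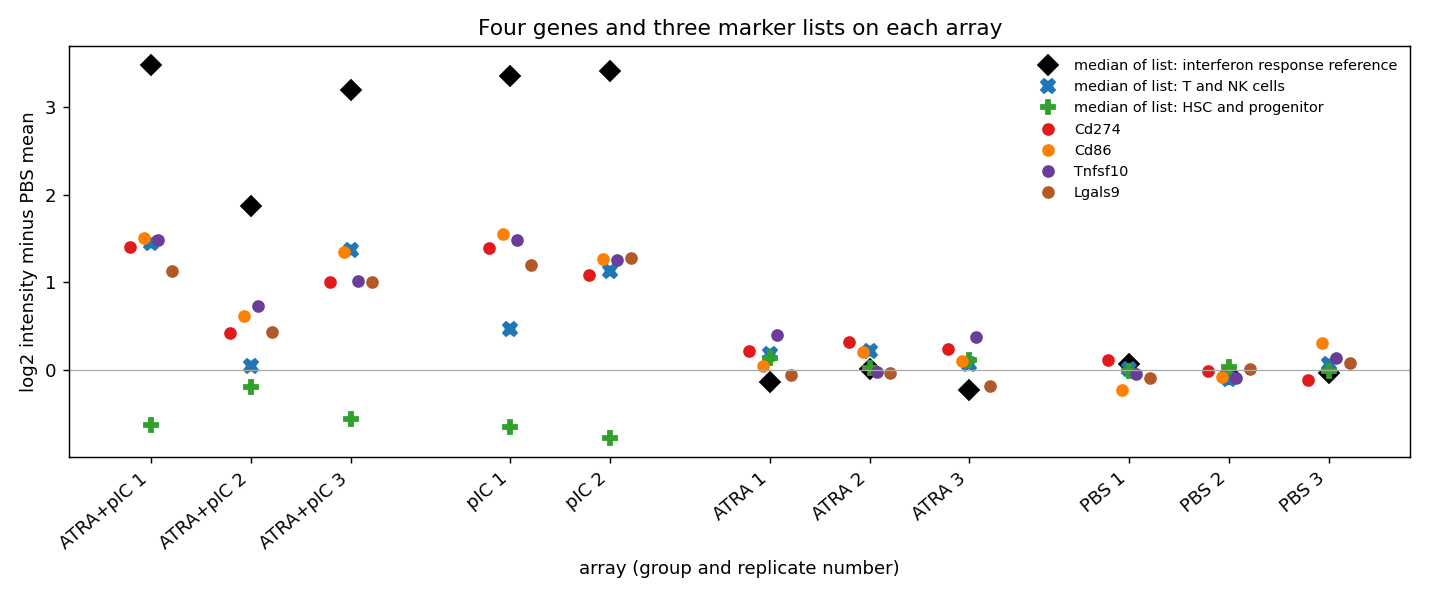
Log2 intensity minus the PBS mean on each of the 11 arrays, grouped as ATRA+pIC, pIC, ATRA and PBS; circles are Cd274, Cd86, Tnfsf10 and Lgals9, and the other marks are medians of the interferon response, T and NK cell, and HSC and progenitor lists. ATRA+pIC replicate 2 lies below the other arrays from pIC-injected mice in the interferon median (1.87) and at 0.042 in the T and NK cell median.

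The wider pathway lists are read against the full-fit shares over all genes given above. These were 8.94% higher and 5.75% lower in pIC against PBS, and 1.61% higher and 1.51% lower in ATRA+pIC against PBS. They do not hold for fits with an array left out. Without ATRA+pIC replicate 2, 2469 of all 22180 genes were called in ATRA+pIC against PBS and 4052 in pIC against PBS, in either direction. Leaving out either pIC array leaves 1 in that group, and calls over all genes then fell as well. Calls lost in those fits are therefore not particular to the genes named. Of 17 measured B7 family and T-cell interaction ligands, 5 rose and 1 fell in pIC against PBS (median 0.17), and 1 rose and none fell in ATRA+pIC against PBS (median 0.10). Pdcd1lg2, which encodes PD-L2, the second PD-1 ligand, rose by 1.57 ± 0.19 in pIC against PBS (adjusted p = 0.00153). For ATRA+pIC against PBS it was 0.57 ± 0.17 (adjusted p = 0.0948), or 0.71 without ATRA+pIC replicate 2 (adjusted p = 0.0274). Its difference of -0.997 ± 0.19 between ATRA+pIC and pIC did not pass (adjusted p = 0.224), though it did with array weights (adjusted p = 0.0361), and it was -0.86 without ATRA+pIC replicate 2 (adjusted p = 0.336). Cd48, the ligand of CD244, rose by 2.14 ± 0.32 in pIC (adjusted p = 0.00309) and by 1.51 in ATRA+pIC (adjusted p = 0.0196). H2-T23, the nonclassical class I gene of Qa-1, rose by 0.90 ± 0.19 in pIC (adjusted p = 0.0121), and Cd200, whose product restrains myeloid cells, fell by 1.31 ± 0.27 (adjusted p = 0.0108). Without pIC replicate 1 or 2 the number of ligands that rose was 2, and the call of Cd200 was lost without pIC replicate 2. The call of Cd48 in ATRA+pIC was lost without PBS replicate 1 or 2 or ATRA+pIC replicate 1 or 3, and 4 ligands rose there without ATRA+pIC replicate 2.

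On the receptor side, 1 of 16 T-cell receptors for these ligands rose and 2 fell in pIC against PBS (median 0.14), while in ATRA+pIC against PBS Tnfrsf4 alone rose (0.67, adjusted p = 0.0335). Lag3, an inhibitory receptor for class II molecules, rose by 1.74 ± 0.35 in pIC (adjusted p = 0.00996), Cd200r1 fell by 1.06 ± 0.22 (adjusted p = 0.0105) and Cd96 fell by 0.72 ± 0.17 (adjusted p = 0.0186). None of the 3 passed with either of the pIC arrays left out, and the call of Cd96 was also lost without PBS replicate 2 or 3. Tnfrsf4 missed the threshold when any 1 of the ATRA or PBS arrays, or ATRA+pIC replicate 1 or 3, was left out. With ATRA+pIC replicate 2 left out, 10 of the 16 rose and 1 fell in ATRA+pIC against PBS. That fit called 2469 of all 22180 genes, in either direction. The levels of the T and NK cell markers on each array are given above, and their part in the receptor counts was not tested. Direct partners of the 10 genes, picked after values had been seen, did not pass in pIC against PBS: the PD-1 gene Pdcd1 differed by 0.58 ± 0.19 (adjusted p = 0.0636), the SIRPα gene Sirpa by -0.66 ± 0.21 (adjusted p = 0.0563), and Tnf by 0.70 ± 0.28 (adjusted p = 0.132). All 3 passed without ATRA+pIC replicate 2, and Pdcd1 and Sirpa also without ATRA+pIC replicate 1. For Cd28, Ctla4, Cd40lg, Fasl, Tnfrsf10b and Havcr2 the adjusted p was 0.605 to 0.919.

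Among 11 phagocytosis genes, companions of Cd47, 3 rose and 1 fell in pIC against PBS (median -0.09). Calr, the surface-exposed eat-me protein calreticulin, rose by 0.62 ± 0.12 (adjusted p = 0.00927), B2m by 0.41 ± 0.095 (adjusted p = 0.0176) and Siglecg, a receptor for CD24, by 0.49 ± 0.12 (adjusted p = 0.0235). Cd24a fell by 0.71 ± 0.21 (adjusted p = 0.049). The 3 rises were lost without pIC replicate 1 or 2, and 1 was left without PBS replicate 2. The fall of Cd24a was lost when any 1 of the PBS, ATRA or pIC arrays, or ATRA+pIC replicate 3, was left out. None passed by limma in ATRA+pIC against PBS, with 4 higher and 2 lower at an unadjusted p under 0.05, and without ATRA+pIC replicate 2 there were 3 rises and 2 falls. Of 8 other galectin genes and partners, Lgals3bp, a secreted galectin-3 binding protein, rose by 1.16 ± 0.18 in pIC (adjusted p = 0.00345) and by 0.91 ± 0.16 in ATRA+pIC (adjusted p = 0.0155), the second of these calls being lost without PBS replicate 1 or 2 or ATRA+pIC replicate 3. Lgals4 fell by 0.61 ± 0.15 in pIC (adjusted p = 0.022), a call lost without either pIC array or without PBS replicate 1 or 2. Of the 8, without ATRA+pIC replicate 2, 1 rose and 1 fell in ATRA+pIC.

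In the rest of the TNF superfamily, 0 of 11 and 0 of 20 genes rose and 2 and 1 fell in pIC against PBS, beside 8.94% and 5.75% of all genes. None of 11 other TNF ligands rose in pIC against PBS by limma (1 at an unadjusted p under 0.05) and 2 fell (median -0.08), Eda by 0.80 ± 0.16 (adjusted p = 0.0109) and the lymphotoxin gene Ltb by 0.71 ± 0.12 (adjusted p = 0.00538). Neither passed without pIC replicate 1, nor Eda without pIC replicate 2. In ATRA+pIC none passed (0 higher and 2 lower unadjusted), and 3 rose and 1 fell without ATRA+pIC replicate 2. Of 20 other TNF receptors only Edar, the receptor of Eda, was called: it fell by 0.96 ± 0.16 in pIC (adjusted p = 0.0043) and by 0.82 in ATRA+pIC (adjusted p = 0.015), the second call being lost without PBS replicate 1. Of the 20, without ATRA+pIC replicate 2, 1 rose and 2 fell in ATRA+pIC. Of 11 TNF receptor associated factor genes and kinases, Traf6 rose by 0.47 ± 0.11 (adjusted p = 0.0159) and Map3k14, the NIK kinase of the alternative NF-kB pathway, fell by 0.645 ± 0.18 (adjusted p = 0.0348) in pIC. Both calls were lost without pIC replicate 1 or 2, and that of Map3k14 also without PBS replicate 1 or 2. In ATRA+pIC none of the 11 passed, with 2 higher at an unadjusted p under 0.05, and none without ATRA+pIC replicate 2.

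Downstream of the death receptors, 6 of 19 adaptors, caspases and brakes rose in pIC against PBS and none fell (median 0.30), beside 8.94% and 5.75% of all genes. With ATRA+pIC, 4 rose and none fell against PBS (median 0.16), beside 1.61% and 1.51% of all genes. Without ATRA+pIC replicate 2 none fell either, and at most 6 rose. Without that array the ATRA+pIC differences were 3.75 for Zbp1, 1.25 for Mlkl, 1.97 for Daxx and 0.57 for Casp8. Zbp1, a nucleic acid sensor that starts necroptosis, rose by 3.81 ± 0.49 in pIC (adjusted p = 0.00186) and by 3.08 ± 0.44 in ATRA+pIC (adjusted p = 0.00614). Mlkl, the executioner of necroptosis, rose by 1.35 ± 0.20 in pIC (adjusted p = 0.00295) and by 1.01 ± 0.18 in ATRA+pIC (adjusted p = 0.0152). Daxx, a Fas-binding adaptor and histone chaperone, rose by 2.10 ± 0.37 in pIC (adjusted p = 0.00573) and by 1.48 ± 0.33 in ATRA+pIC (adjusted p = 0.0401). Ripk3, the kinase that activates MLKL, rose by 0.36 ± 0.08 in pIC (adjusted p = 0.0173). Casp8, the initiator caspase of death receptors, rose by 0.51 in pIC and by 0.47 ± 0.11 in ATRA+pIC (adjusted p = 0.0498). Without pIC replicate 1 or 2 the number that rose in pIC was 3 or 2, and Ripk3 also missed the threshold without PBS replicate 1. The ATRA+pIC count was 0 in a fit of only the ATRA+pIC and PBS arrays. It was 1 without PBS replicate 1 or 2 or ATRA+pIC replicate 3, and 2 without ATRA+pIC replicate 1 or any 1 of the ATRA or pIC arrays.

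**Figure D4:**
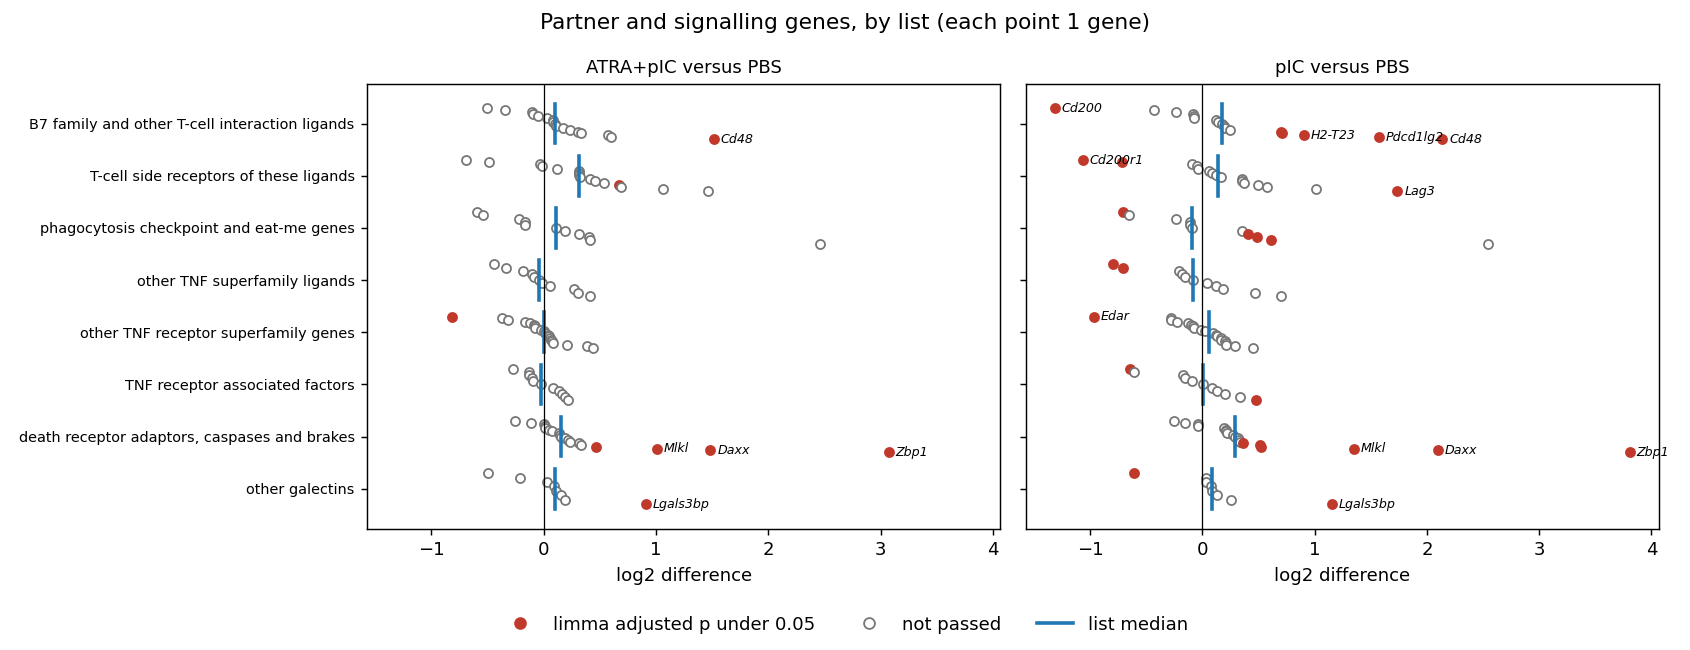
Log2 differences of single genes in the 8 pathway lists (rows), ATRA+pIC against PBS on the left and pIC against PBS on the right, with called genes filled and list medians as vertical lines. The adaptor, caspase and brake list has its calls on the higher side only, led by Zbp1 at 3.81 in pIC, while the TNF ligand list has its pIC calls on the lower side only.

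The genes whose levels over the 11 arrays ran closest to each called gene were found by the root mean square gap after centring each gene on its PBS mean. Closest to Cd274 were Trim30b, Ifitm3 and Trim12a, at gaps of 0.13, 0.14 and 0.14 log2 units. Closest to Cd86 were Trafd1, Mitd1 and Slc35d3, at 0.15, 0.15 and 0.16. Closest to Tnfsf10 were Ccnyl1, Mitd1 and Cd274, at 0.17, 0.18 and 0.19. Closest to Lgals9 were Acadl, Lgals3bp and Mov10, at 0.07, 0.09 and 0.10, with Acadl at 1.30 and Lgals9 at 1.24 in pIC against PBS. These gaps describe 11 arrays of 4 groups and carry no test.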

How the data were processed

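Total RNA of sorted mouse HSCs was biotin-labelled and hybridised to Affymetrix arrays, per the labels' protocols. The authors deposited 1 table of log2 intensities; the submitters' processing notes name oligo 1.36.1, RMA and limma 3.28.20. RMA equalises distributions between arrays, so a shift shared by most genes would not be seen; array medians were 6.19 to 6.28. Of 41345 probe sets, 23521 carried 1 gene symbol, 1814 several and 16010 none; the brightest probe set stood for a gene with several, giving 22180 genes. For arrays, the number of replicates limits the precision.

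Differences, SEs and 95% intervals came from limma 3.58.1 (R 4.3.3) fitted to all 11 arrays and 4 groups, with Benjamini-Hochberg adjustment over all 22180 genes. The script was tested on simulated data. Tables and figures were made with pandas 2.3.3, numpy 2.4.6 and matplotlib 3.10.9. Named genes were the 10 members, in each pathway list the called genes of lowest p (at most 4 a comparison), direct partners, and for likeness the 3 closest genes. The members, the pathway and marker lists and the tests were chosen with earlier results of these data known. Alternatives were scaling by cyclic loess, averaging probe sets or testing each separately, leaving out the dimmest 40% of genes, array weights, a trended robust prior, only the groups compared, a replicate block and leaving out each array. Their use on list counts and on genes outside the 10 was added after seeing the data. Promoter windows are from RefSeq, GRCm38.p6.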

Additional observations from a re-analysis of the deposited data

How the results depend on the processing

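Of 1124 alternative values for the 60 results of the 10 genes, 1052 kept their direction and their side of the threshold, 36 lost a call, 13 gained one and 23 changed sign, none of which had passed before or after. In pIC against PBS the number of genes that rose was 4, or 5 with array weights or a trended robust prior. In ATRA+pIC against PBS it was 5 with array weights, where Cd40 passed (0.36, adjusted p = 0.0345), 0 with only the groups compared and 0 to 4 with each array left out: 0 without PBS replicate 2 or ATRA+pIC replicate 3, and 1 without PBS replicate 1 or ATRA+pIC replicate 1. In ATRA+pIC against ATRA the number of calls was 5 without the dimmest 40% of genes, 6 with array weights, 5 with the trended robust prior, 0 with only the groups compared, and 1 to 5 with each array left out. Fewer arrays enter the fit of only the groups compared, so its spread is estimated from fewer degrees of freedom. Over all 22180 genes, calls in ATRA+pIC against PBS numbered 3127 with array weights and 70 with only the groups compared. In ATRA+pIC against ATRA they numbered 4588 with array weights, 1974 with the trended robust prior and 305 with only the groups compared. Without the dimmest 40% of genes they numbered 2129 of 13308 there. Calls in pIC against PBS numbered 4204 with array weights and 3588 with the trended robust prior. The array weights of ATRA+pIC replicates 1, 2 and 3 were 0.65, 0.37 and 4.19. The other comparisons gave 0 calls among the 10 genes under every alternative run.

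Signs changed only for differences that had not passed. With array weights Cd80 and Tnfrsf1b were -0.017 and 0.045 in ATRA+pIC against PBS, with cyclic loess Tnfrsf1a was 0.013 in ATRA+pIC against pIC, and with the replicate block Cd40 was -0.043 there. With each array left out, values ran in pIC against PBS -0.081 to 0.17 for Cd28, -0.16 to 0.014 for Cd80, -0.12 to 0.29 for Ctla4, -0.11 to 0.40 for Havcr2 and -0.25 to 0.58 for Tnfrsf10b. In ATRA+pIC against PBS they ran -0.015 to 0.20 for Cd80 and -0.12 to 0.0074 for Tnfrsf1b. They ran in ATRA against PBS -0.075 to 0.0006 for Cd47 and -0.16 to 0.083 for Cd80. In ATRA+pIC against ATRA they ran -0.016 to 0.20 for Cd40 and -0.039 to 0.014 for Tnfrsf1a. They ran in ATRA+pIC against pIC -0.085 to 0.13 for Cd40, -0.13 to 0.007 for Cd47, -0.43 to 0.016 for Cd86 and -0.92 to 0.16 for Fas. In the interaction they ran -0.097 to 0.039 for Cd47 and -0.80 to 0.28 for Fas.

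Same-numbered samples did not deviate together (correlations -0.11 to 0.10 over 15 pairs), and with the replicate number as a block the counts were 4 in pIC and 4 in ATRA+pIC against PBS, 3 in ATRA+pIC against ATRA and 0 elsewhere. In 7 of 18 checks a sample correlated best with its own number.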
